A study of Mus musculus with 12 samples.

Results

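The genes described here are 9 enzymes and cofactors of DNA methylation, taken by symbol from a count table of 24391 gene symbols. They are the methyltransferases Dnmt1, Dnmt3a and Dnmt3b, their cofactors Dnmt3l, Uhrf1 and Hells, and the oxidases Tet1, Tet2 and Tet3. All 9 were among the 17115 genes that passed the low-count filter. They were measured by RNA-seq of total RNA in 12 libraries from 4 female mouse embryonic stem cell (mESC) lines of a cross between C57BL/6J-129/SvJ and Mus musculus castaneus. Every line carried 1 Rosa26 allele with CreERT (Rs26+/CreERT), a Cre recombinase that 4-hydroxytamoxifen (OHT) activates. Lines 15.10 and 16.9 were Rif1F/F, with floxed alleles of Rif1, whose protein binds chromatin and helps set replication timing, and lines 5.3 and 5.16 were Rif1+/+ (WT).

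From each line 1 library was made under each of 3 conditions, so the 6 groups held 2 libraries each. Before OHT, the mESC groups were Rif1F/F (called F/F) and WT. After 2 days of OHT, the Rif1F/F lines (called KO) and the WT lines were sampled as mESC. They were also sampled as embryoid bodies (EB) of 2 days, made after OHT. F/F library titles hold a KO tag beside a WT tag. They were read as undeleted because their labels place the sample before deletion and name no OHT. The mESC medium held 12.5% serum, leukemia inhibitory factor at 20 ng/ml, and inhibitors of MEK at 1 μM and of GSK3 at 3 μM. The run code in the labels was the same within a condition and differed between conditions, so condition and run cannot be told apart. Each genotype was 2 lines, and genotype cannot be told apart from other differences between the pairs of lines.

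DNA methylation is set on unmethylated CpG sites by DNMT3A and DNMT3B, with DNMT3L as a catalytically inactive partner, and is copied to the new strand after replication by DNMT1, which UHRF1 brings to hemimethylated sites. HELLS is a chromatin remodeller needed for methylation of repeats. TET enzymes oxidise 5-methylcytosine, the first step of active demethylation. Mouse ES cells held with MEK and GSK3 inhibitors are known for low methylation and low de novo enzymes, and methylation is gained as cells leave that state.

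Total counts ranged from 28600870 to 64808897 per library. Rif1 RNA, the check of the deletion, had 702 and 661 CPM in KO mESC, against 1605 and 1455 CPM in WT mESC, where CPM is the usual depth-scaled count, here with TMM library sizes. In EB it had 789 and 845 CPM in KO, against 1382 and 1342 CPM in WT, 1.67-fold lower, and it was higher in KO EB than in KO mESC (log2 fold change 0.26 ± 0.08, adjusted p = 0.00669). It was already lower before OHT, at 1172 and 1172 CPM in F/F, against 1537 and 1751 CPM in WT. The genotype effect on Rif1 differed between EB and before OHT by -0.25 ± 0.11 (adjusted p = 0.0873). The difference in EB was thus not shown to exceed that between the undeleted lines. In mESC after OHT the difference did exceed it, by -0.68 ± 0.11 (adjusted p = 0.00098). Against F/F before OHT, Rif1 in KO mESC had a log2 fold change of -0.78 ± 0.08 (adjusted p = 8.8e-07). Of the libraries, WT mESC replicate 1 was unlike the rest, for Lars2 took 0.869% of its reads and no more than 0.14% elsewhere. The 8 stem cell markers summed to 4391 to 6294 CPM in the mESC libraries and 1350 to 1570 CPM in EB. The 9 feeder fibroblast markers summed to 8.38 to 23.8 CPM in all libraries, and the collagen genes Col1a2 and Col3a1 and Postn were at 0 in some of them. Sums of the 7 primitive endoderm markers were 17.5 to 34.4 CPM. The 14 markers of 2-cell-like cells summed to 328 to 369 CPM in KO EB, against 11.2 to 14.1 CPM in WT EB. All 12 of those tested were higher, where 20.7% of all genes were higher. Tcstv1 and Tcstv3, at 0 in every library, were not tested. In libraries before OHT, 7 to 10 of the 14 were at 0, so the tested ones passed the filter largely through other libraries, and the count is a description. The part of these markers in the results below was not tested.

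In KO EB, most of these genes were lower than in WT EB, but not the maintenance pair. Of the 9 genes, 6 were lower in KO EB than in WT EB (Dnmt3a, Dnmt3b, Hells, Tet1, Tet2 and Tet3) and 1 was higher (Dnmt3l), at an adjusted p under 0.05 in edgeR's quasi-likelihood test. Over all genes tested, 40.4% were called in that comparison, 19.7% lower and 20.7% higher. In mESC after OHT, 5 were lower in KO (Dnmt3a, Dnmt3b, Dnmt3l, Uhrf1 and Hells) and 1 was higher (Tet3), where 38.4% of all genes were called, 18.6% lower and 19.8% higher. Before OHT, 3 were already lower in F/F (Dnmt3a, Dnmt3l and Hells) and 2 higher (Tet1 and Tet2), where 37.4% of all genes were called, 17.5% lower and 19.9% higher. With 9 genes and such backgrounds, the shares called are descriptions. Values after ± are the SE of a log2 fold change, or the SD of 2 libraries for a level. Nothing in the labels says that the libraries came from separate cultures of a line.

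**Figure D1:**
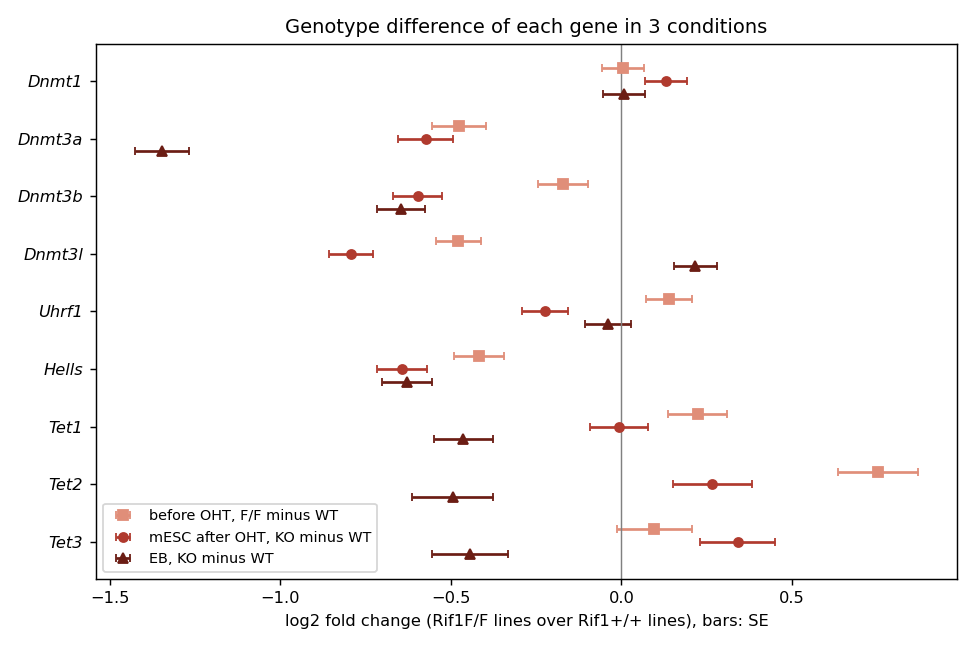
Log2 fold change of each of the 9 genes in the Rif1F/F lines against the WT lines, in each of the 3 conditions, with bars of 1 SE of the fit. Dnmt3a in EB lies farthest below 0 at -1.35, and Dnmt3l lies below 0 in mESC and above it in EB.

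The de novo enzymes were the genes that differed most between conditions. Upstream sequences are shown for them because they differ in CpG content, the substrate of the enzymes themselves. RefSeq (GRCm38.p6) lists 3 starts for Dnmt3a, 1 for Dnmt3b and 3 for Dnmt3l. The 250 bases before the start held 38, 40 and 15 CpG for Dnmt3a, 21 for Dnmt3b and 5, 4 and 3 for Dnmt3l. The median of 32851 promoters of that length was 6 CpG. The third Dnmt3a start, the Dnmt3b start and the first Dnmt3l start are printed 5′ to 3′ on the gene's strand, with each CG in capitals.
Dnmt3a, chr12:3891494-3891743 (+): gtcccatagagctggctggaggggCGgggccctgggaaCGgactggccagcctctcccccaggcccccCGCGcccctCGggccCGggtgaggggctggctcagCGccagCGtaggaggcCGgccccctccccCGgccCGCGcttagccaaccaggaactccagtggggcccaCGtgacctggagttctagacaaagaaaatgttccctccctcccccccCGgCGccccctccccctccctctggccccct
Dnmt3b, chr2:153649199-153649448 (+): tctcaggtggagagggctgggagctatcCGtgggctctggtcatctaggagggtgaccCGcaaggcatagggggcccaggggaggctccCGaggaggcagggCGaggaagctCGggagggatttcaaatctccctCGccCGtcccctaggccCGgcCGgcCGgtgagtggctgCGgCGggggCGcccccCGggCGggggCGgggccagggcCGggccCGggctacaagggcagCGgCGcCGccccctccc
Dnmt3l, chr10:78042037-78042286 (+): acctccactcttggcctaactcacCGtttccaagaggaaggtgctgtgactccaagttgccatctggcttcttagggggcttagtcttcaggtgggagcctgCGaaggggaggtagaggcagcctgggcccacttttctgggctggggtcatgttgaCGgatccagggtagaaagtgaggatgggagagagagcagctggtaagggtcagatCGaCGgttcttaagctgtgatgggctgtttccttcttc
The Dnmt3l sequence has CG at 5 places, whereas the Dnmt3b sequence has it at 21 and the Dnmt3a sequence at 15. The counts are summed per gene and do not show from which start a transcript came.

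Dnmt3a encodes a de novo methyltransferase. It had 93.9 and 82.6 CPM in F/F and 133 and 112 CPM in WT before OHT, 66.3 and 68.3 CPM in KO mESC and 100.04 and 101 CPM in WT mESC after OHT, and 392 and 383 CPM in KO EB and 996 and 976 CPM in WT EB. The Rif1F/F libraries lay below the WT libraries in every condition, and the gap was widest in EB. The log2 fold change was -0.48 ± 0.08 (adjusted p = 0.00016) before OHT, -0.57 ± 0.08 (adjusted p = 3.1e-05) in mESC after OHT and -1.35 ± 0.08 (adjusted p = 5.9e-10) in EB. The log2 fold change in EB was more negative than that in mESC by -0.77 ± 0.11 (adjusted p = 8.2e-05) and that before OHT by -0.87 ± 0.11 (adjusted p = 1.5e-05). Between after and before OHT it differed by -0.10 ± 0.11 (adjusted p = 0.634, 95% interval -0.338 to 0.14).

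Dnmt3b, the other de novo methyltransferase, had 64.9 and 75.2 CPM in F/F and 78.9 and 78.9 CPM in WT before OHT, 102 and 95.8 CPM in KO mESC and 154 and 145 CPM in WT mESC after OHT, and 776 and 784 CPM in KO EB and 1205 and 1238 CPM in WT EB. The genotypes did not overlap in any condition, and the smallest gap was before OHT. There the log2 fold change was -0.17 ± 0.07 (adjusted p = 0.0739), and -0.28 (adjusted p = 0.0115) without F/F replicate 4. It was -0.60 ± 0.07 (adjusted p = 5.8e-06) in mESC after OHT and -0.65 ± 0.07 (adjusted p = 1.3e-06) in EB. These last 2 values differed by -0.05 ± 0.10 (adjusted p = 0.748, 95% interval -0.262 to 0.161), while the value in EB lay below that before OHT by -0.48 ± 0.10 (adjusted p = 0.00171). Of the 50-base words in Dnmt3b transcripts, 9.81% occur in another gene, mainly its close copy Dnmt3c, so its counts may include or lack such reads.

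Dnmt3l moved the other way in EB. It had 42.6 and 42.1 CPM in F/F and 61.1 and 56.9 CPM in WT before OHT, 84.7 and 82.7 CPM in KO mESC and 150.4 and 139.7 CPM in WT mESC after OHT, and 941 and 913 CPM in KO EB and 787 and 809 CPM in WT EB. The Rif1F/F libraries were the lower ones in both mESC conditions and the higher ones in EB. Its log2 fold change was -0.48 ± 0.07 (adjusted p = 2.5e-05) before OHT, -0.79 ± 0.07 (adjusted p = 6.5e-08) in mESC after OHT and 0.22 ± 0.06 (adjusted p = 0.011) in EB. The EB call was lost without KO EB replicate 3 (0.19, adjusted p = 0.101) or without WT EB replicate 1 (0.21, adjusted p = 0.0571). The difference between the genotype effects in EB and in mESC was 1.01 ± 0.09 (adjusted p = 5.5e-07), and between EB and before OHT it was 0.69 ± 0.09 (adjusted p = 2.1e-05). Dnmt3l shares 67 exonic bases with Aire on the opposite strand, and it is not known here whether counting used strand. Aire had 9594 counts over all libraries and Dnmt3l 150295.

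All 3 Dnmt3 genes rose in EB in both genotypes. Of the 9 genes, 7 were called between KO EB and KO mESC, 4 of them higher and 3 lower, where 59.0% of all genes were called (31.4% higher, 27.6% lower). Between WT EB and WT mESC 8 were called, 5 of them higher and 3 lower, where 62.3% of all genes were called (32.5% higher, 29.8% lower). Dnmt3a rose 5.75-fold in KO (log2 fold change 2.52 ± 0.08) and 9.83-fold in WT (3.30 ± 0.08). Dnmt3b rose 7.89-fold in KO (2.98 ± 0.08) and 8.17-fold in WT (3.03 ± 0.08). Dnmt3l rose 11.1-fold in KO (3.47 ± 0.07) and 5.5-fold in WT (2.46 ± 0.07). The rise of Dnmt3a was thus the smaller one in KO and that of Dnmt3l the larger one, as the tests of the difference above show, while the rises of Dnmt3b differed by less than their error. In EB, the 5 early epiblast markers other than Dnmt3a and Dnmt3b summed to 246 to 259 CPM in KO, against 526 to 532 CPM in WT, and all 5 were lower in KO. The 8 stem cell markers summed to 1481 to 1570 CPM in KO EB, against 1350 to 1383 CPM in WT EB, with 4 higher and none lower in KO. Of all genes, 20.7% were higher and 19.7% lower in KO EB. Before OHT, 7 stem cell markers were already higher in F/F and none lower, with a median log2 fold change of 0.41, beside 0.23 in EB. Of the 5 early epiblast markers, 1 was higher and 2 lower in F/F before OHT. Of all genes, 19.9% were higher and 17.5% lower there. In bulk samples, fewer cells of a type and less RNA per cell cannot be told apart.

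**Figure D2:**
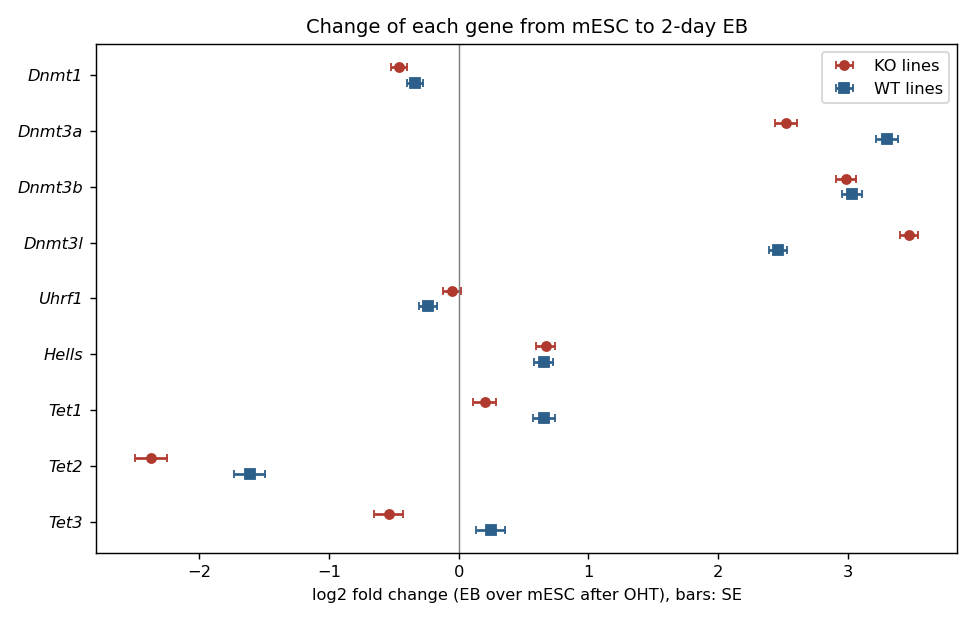
Log2 fold change of each of the 9 genes in EB against mESC after OHT, in KO and in WT lines, with bars of 1 SE of the fit. The 3 Dnmt3 genes lie between 2.46 and 3.47 in both genotypes, and Tet2 lies at -2.37 in KO and -1.61 in WT.

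The balance of the Dnmt3 genes in EB differed between genotypes. Levels of different genes were compared as CPM per kilobase of merged exons. The ratio of Dnmt3l to Dnmt3a was 8.91 and 8.85 in KO EB, against 2.94 and 3.08 in WT EB. In mESC after OHT it was 4.74 and 4.49 in KO, against 5.58 and 5.16 in WT, and before OHT it was 1.68 and 1.89 in F/F, against 1.7 and 1.89 in WT. The ratio was therefore higher in KO in EB alone among the 3 conditions, slightly lower in KO in mESC and overlapping before OHT. The summed level of Dnmt3a and Dnmt3b was 219 and 219.9 CPM per kb in KO EB, against 379 and 385 CPM per kb in WT EB. Dnmt3a made up 18.1% and 17.6% of that sum in KO EB, against 26.5% and 25.6% in WT EB. Before OHT its share was 38.7% and 32.4% in F/F, against 42.4% and 38.2% in WT, so that these groups overlapped. These sums and shares carry no test.

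**Figure D3:**
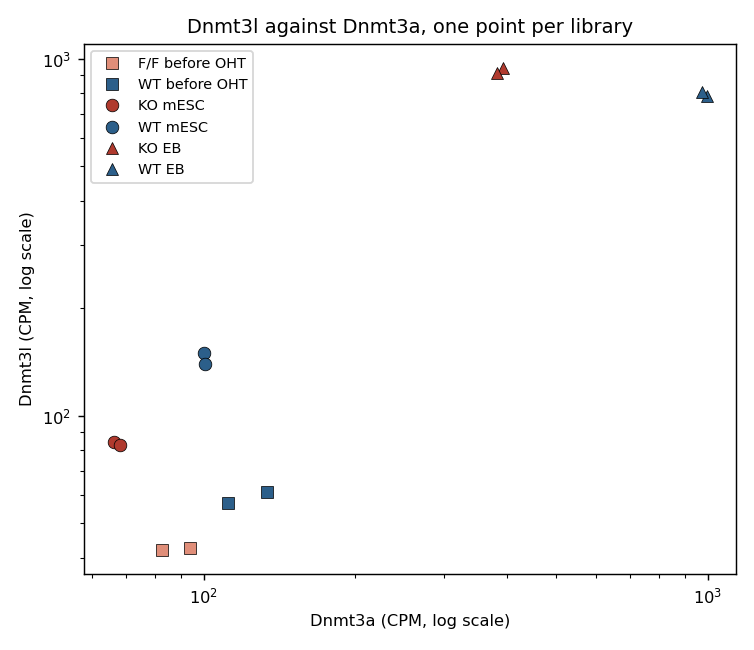
Dnmt3l level (vertical) against Dnmt3a level (horizontal), both in CPM on log axes, with 1 point for each of the 12 libraries, coloured by genotype and shaped by condition. The KO EB points (Dnmt3l 941 and 913 CPM, Dnmt3a 392 and 383 CPM) lie above and to the left of the WT EB points.

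After OHT, the Dnmt3 genes also changed in the WT lines, so a change within the Rif1F/F lines alone is no measure of the deletion. Of the 9 genes, 4 were called between KO mESC and F/F mESC before OHT, 3 of them higher, where 43.7% of all genes were called (22.1% higher, 21.5% lower). Between WT mESC and WT before OHT 6 were called, 5 of them higher, where 49.1% of all genes were called (24.9% higher, 24.2% lower). Dnmt3l rose by 0.98 ± 0.07 on the log2 scale in KO (adjusted p = 2.2e-08) and by 1.30 ± 0.07 in WT (adjusted p = 1.9e-09). Dnmt3b rose by 0.50 ± 0.07 in KO and by 0.92 ± 0.07 in WT. Dnmt3a fell in both, with log2 fold changes of -0.39 ± 0.08 in KO and -0.29 ± 0.08 in WT. The WT value was -0.16 (adjusted p = 0.163) without WT replicate 1 from before OHT. The run of the libraries differs between these conditions as well.

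Tests of the difference between these changes called 3 of the 9 genes, all more negative in the Rif1F/F lines, where 7.86% of all genes were called (4.07% higher, 3.79% lower). They were Dnmt3b at -0.42 ± 0.10 (adjusted p = 0.0177), Uhrf1 at -0.36 ± 0.10 (adjusted p = 0.0281) and Dnmt3l at -0.32 ± 0.09 (adjusted p = 0.0463). The count was 0 without KO mESC replicate 4, F/F replicate 4, WT mESC replicate 1 or WT replicate 1 from before OHT. It was 1 without KO mESC replicate 3, 2 without F/F replicate 3 or WT replicate 2 from before OHT, and 6 without WT mESC replicate 2. With the cell line as a block, Dnmt3l had an adjusted p of 0.0636. The calls of the genotype effect that emerged after OHT therefore rest on single libraries.

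**Figure D4:**
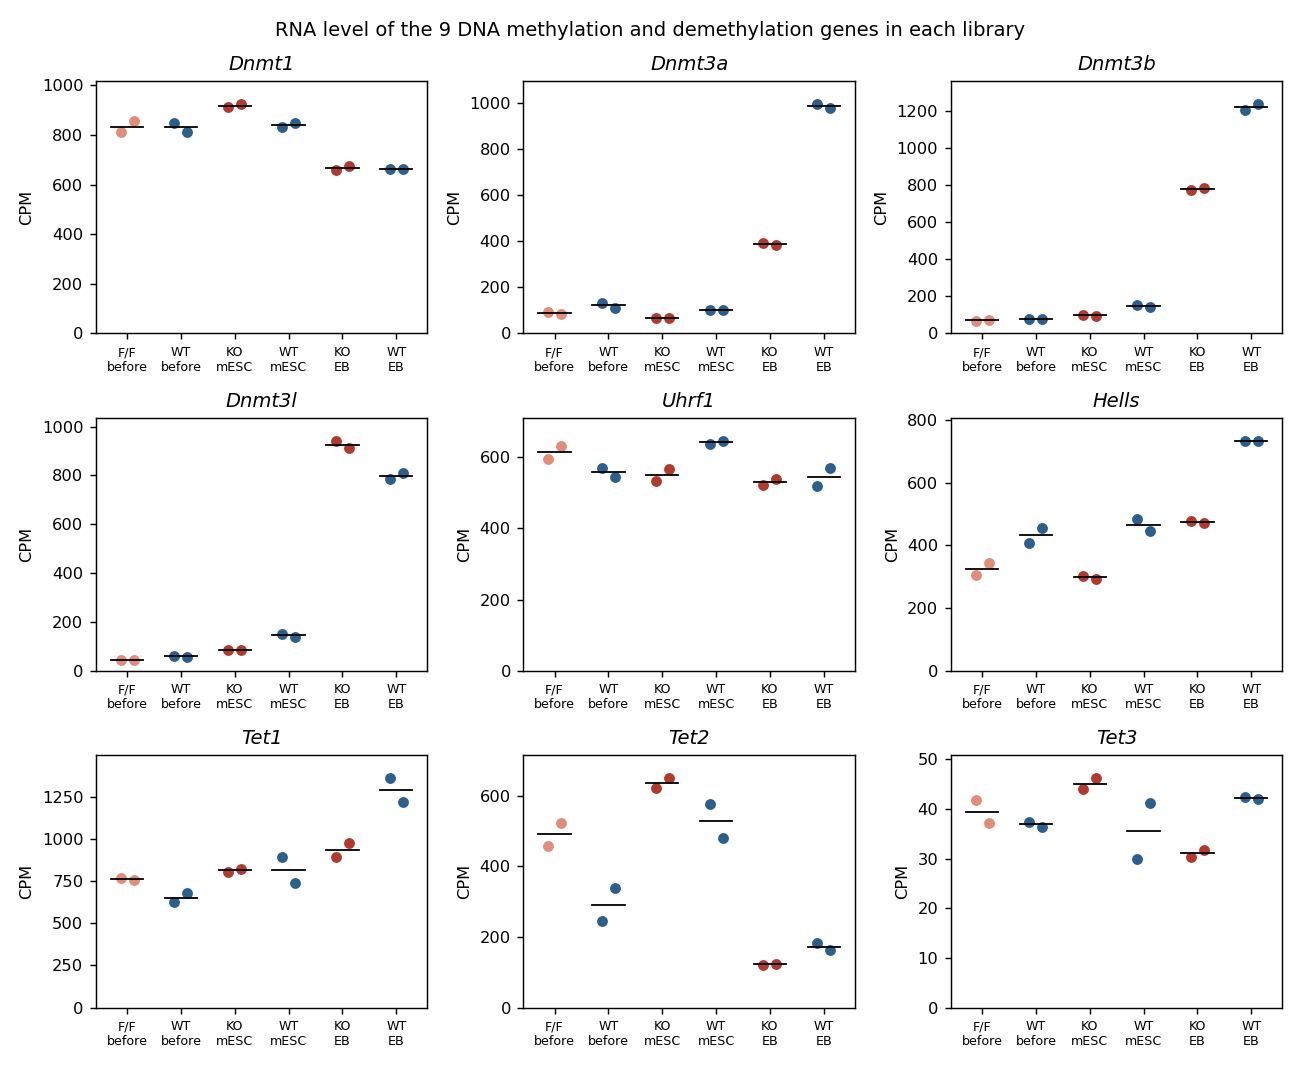
Level of each of the 9 genes in CPM, in a panel each with an axis from 0, with 1 point per library and a line at each group mean, in the order before OHT, mESC after OHT and EB. Dnmt3a is at 387 CPM in KO EB and 986 CPM in WT EB, while Dnmt1 is at 667 CPM in KO EB and 664 CPM in WT EB.

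The maintenance genes Dnmt1 and Uhrf1 stayed within a narrow range. E2F factors drive S-phase genes, and the 8-base words TTTCCCGC, TTTGGCGC and TTTCGCGC are forms of their binding motif. A script searched both strands of the 250 bases before each RefSeq start for these words, which can overlap each other's reverse forms. They lie before 1 of 3 listed starts of Dnmt1, 1 of 2 of Uhrf1 and the 1 of Hells, and before no listed start of the other 6 genes. In Dnmt1 and Uhrf1 the matched window lies downstream of the gene's other listed starts, so it can hold transcribed sequence. Of 32851 promoters, 504 (1.53%) hold such a word, a share per start and not per gene. The 3 sequences (RefSeq, GRCm38.p6) are printed 5′ to 3′ on the gene's strand with the matched word in capitals.
Dnmt1, chr9:20952624-20952873 (-): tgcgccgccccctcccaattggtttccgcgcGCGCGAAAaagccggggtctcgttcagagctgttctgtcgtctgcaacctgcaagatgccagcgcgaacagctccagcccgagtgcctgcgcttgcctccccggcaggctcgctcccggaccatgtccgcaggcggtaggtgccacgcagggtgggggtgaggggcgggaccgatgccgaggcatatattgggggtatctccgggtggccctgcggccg
Uhrf1, chr17:56304063-56304312 (+): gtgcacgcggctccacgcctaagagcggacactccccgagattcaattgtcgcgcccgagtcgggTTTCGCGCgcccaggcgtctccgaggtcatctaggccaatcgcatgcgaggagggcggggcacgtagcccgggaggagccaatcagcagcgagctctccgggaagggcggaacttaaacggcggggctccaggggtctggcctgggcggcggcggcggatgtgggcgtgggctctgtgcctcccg
Hells, chr19:38930740-38930989 (+): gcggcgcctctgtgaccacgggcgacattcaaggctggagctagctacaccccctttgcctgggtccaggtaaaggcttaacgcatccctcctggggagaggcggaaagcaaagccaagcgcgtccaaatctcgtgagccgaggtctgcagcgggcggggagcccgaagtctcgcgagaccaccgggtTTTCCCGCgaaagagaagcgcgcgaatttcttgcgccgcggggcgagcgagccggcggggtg
The match reads GCGCGAAA in Dnmt1, the reverse complement of a word searched, TTTCGCGC in Uhrf1 and TTTCCCGC in Hells. A match describes the letters and is not a site.

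Dnmt1, which copies methylation at replication, had 811 and 856 CPM in F/F and 849 and 813 CPM in WT before OHT, 913 and 925 CPM in KO mESC and 832 and 848 CPM in WT mESC after OHT, and 661 and 673 CPM in KO EB and 664 and 664 CPM in WT EB. Genotypes overlapped before OHT and in EB, and KO lay above WT in mESC after OHT. The log2 fold change there was 0.13 ± 0.06 (adjusted p = 0.103), and 0.19 (adjusted p = 0.0124) with library totals. In EB it was 0.01 ± 0.06 (adjusted p = 0.942), with a 95% interval of -0.122 to 0.137. In EB against mESC Dnmt1 fell in both genotypes, by 0.46 ± 0.06 on the log2 scale in KO (adjusted p = 4.7e-06) and by 0.34 ± 0.06 in WT (adjusted p = 0.00012). These changes differed by -0.12 ± 0.09 (adjusted p = 0.313).

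Uhrf1, which guides DNMT1 to hemimethylated DNA, had 596 and 633 CPM in F/F and 571 and 545 CPM in WT before OHT, 533 and 568 CPM in KO mESC and 639 and 646 CPM in WT mESC after OHT, and 522 and 539.8 CPM in KO EB and 520.3 and 571 CPM in WT EB. KO lay below WT in mESC after OHT, and the genotypes overlapped in EB. Before OHT F/F lay above WT, with a log2 fold change that was not called (0.14 ± 0.07, adjusted p = 0.115). The mESC log2 fold change was -0.22 ± 0.07 (adjusted p = 0.0146). It did not pass without KO mESC replicate 3 (-0.18, adjusted p = 0.143) or WT mESC replicate 1 (-0.21, adjusted p = 0.0555). In EB it was -0.04 ± 0.07 (adjusted p = 0.675, 95% interval -0.182 to 0.102). In EB against mESC Uhrf1 fell in WT by 0.24 ± 0.07 on the log2 scale (adjusted p = 0.0057), and in KO its value was -0.05 ± 0.07 (adjusted p = 0.527). These 2 changes differed by 0.18 ± 0.10 (adjusted p = 0.165). Of the 50-base words in Uhrf1 transcripts, 15.4% occur in another gene, mainly Gm5648.

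Hells was lower in the Rif1F/F lines in all 3 conditions. It had 305 and 342 CPM in F/F and 409 and 456 CPM in WT before OHT, 302 and 293 CPM in KO mESC and 485 and 445 CPM in WT mESC after OHT, and 476 and 471 CPM in KO EB and 732 and 732 CPM in WT EB. No Rif1F/F library reached a WT library of its condition. The log2 fold change was -0.42 ± 0.07 (adjusted p = 0.00025) before OHT, -0.64 ± 0.07 (adjusted p = 3.2e-06) in mESC after OHT and -0.63 ± 0.07 (adjusted p = 2.9e-06) in EB. Between EB and mESC the effect differed by 0.02 ± 0.10 (adjusted p = 0.931, 95% interval -0.202 to 0.234). Hells rose in EB in both genotypes, by 0.67 ± 0.07 on the log2 scale in KO and by 0.66 ± 0.07 in WT, so that KO EB overlapped WT mESC.

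Of the Tet genes, Tet1 was the most abundant in EB. Tet1 had 766 and 758 CPM in F/F and 624 and 681 CPM in WT before OHT, 803 and 823 CPM in KO mESC and 894 and 739.8 CPM in WT mESC after OHT, and 892 and 975 CPM in KO EB and 1358 and 1216 CPM in WT EB. F/F lay above WT before OHT, the genotypes overlapped in mESC after it, and KO lay below WT in EB. The EB log2 fold change was -0.46 ± 0.09 (adjusted p = 0.00035) and the mESC one -0.01 ± 0.09 (adjusted p = 0.961, 95% interval -0.188 to 0.174). The difference between them was -0.46 ± 0.12 (adjusted p = 0.00956), and -0.40 (adjusted p = 0.0576) without KO EB replicate 3. Before OHT the value was 0.22 ± 0.09 (adjusted p = 0.0495), which did not pass without either F/F replicate 3 or 4 (adjusted p = 0.116 each) or WT replicate 1 (adjusted p = 0.284). Tet1 rose in WT EB by 0.66 ± 0.09 on the log2 scale (adjusted p = 3.6e-06), and in KO EB its value was 0.20 ± 0.09 (adjusted p = 0.0549). The KO value passed with library totals (adjusted p = 0.0236), no filter (0.0234), DESeq2 (0.0359) and only the groups compared (0.00342).

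Tet2 was higher in every mESC library than in any EB library, conditions that also differ in run. It had 459 and 523 CPM in F/F and 244 and 338 CPM in WT before OHT, 622 and 649.8 CPM in KO mESC and 578 and 479.9 CPM in WT mESC after OHT, and 122 and 124 CPM in KO EB and 182 and 164 CPM in WT EB. The Rif1F/F libraries were the higher ones in both mESC conditions and the lower ones in EB. The log2 fold change was 0.75 ± 0.12 (adjusted p = 7.8e-05) before OHT, 0.27 ± 0.12 (adjusted p = 0.0808) in mESC after OHT and -0.49 ± 0.12 (adjusted p = 0.003) in EB. Without WT mESC replicate 1 the difference in mESC was 0.42 (adjusted p = 0.0158), and it also passed with library totals (adjusted p = 0.0323), no filter (0.00369) and only the groups compared (0.0393). The effect in EB lay below that in mESC by -0.76 ± 0.17 (adjusted p = 0.00264) and below that before OHT by -1.25 ± 0.17 (adjusted p = 2.4e-05). In EB against mESC Tet2 had log2 fold changes of -2.37 ± 0.12 in KO, 5.17-fold lower, and of -1.61 ± 0.12 in WT, 3.05-fold lower. After OHT it rose in WT by 0.86 ± 0.12 (adjusted p = 2.1e-05) and in KO by 0.37 ± 0.12 (adjusted p = 0.0156). The KO call was lost without KO mESC replicate 4 (adjusted p = 0.085) or F/F replicate 3 (adjusted p = 0.151), and in DESeq2 (adjusted p = 0.0593).

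Tet3 was the least abundant of the 9 genes per length in every library. It had 41.7 and 37.2 CPM in F/F and 37.4 and 36.4 CPM in WT before OHT, 44.0 and 46.2 CPM in KO mESC and 30.02 and 41.3 CPM in WT mESC after OHT, and 30.4 and 31.7 CPM in KO EB and 42.4 and 42.0 CPM in WT EB. The low value of WT mESC replicate 1 is that of the library that stood apart. KO lay above WT in mESC after OHT and below it in EB. The EB log2 fold change was -0.44 ± 0.11 (adjusted p = 0.00446). The mESC one was 0.34 ± 0.11 (adjusted p = 0.0208), and 0.14 (adjusted p = 0.271) without WT mESC replicate 1. It was also lost without KO mESC replicate 3 (0.38, adjusted p = 0.0528) or replicate 4 (0.31, adjusted p = 0.123). The effects in EB and mESC differed by -0.78 ± 0.16 (adjusted p = 0.00139). In EB against mESC the log2 fold change of Tet3 was -0.54 ± 0.11 in KO (adjusted p = 0.00053) and 0.25 ± 0.11 in WT (adjusted p = 0.0605). The WT value was -0.01 (adjusted p = 0.969) without WT mESC replicate 1, 0.49 (adjusted p = 0.000168) without replicate 2, and had an adjusted p of 0.0477 with the cell line as a block.

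Of the 9 genes, 5 had genotype effects in EB that differed from those in mESC (Dnmt3a, Dnmt3l, Tet1, Tet2 and Tet3), where 28.6% of all genes were called (14.8% higher, 13.7% lower). Of these, 4 were more negative in EB and Dnmt3l more positive. From the effect before OHT, that in EB differed for 6 genes (those 5 and Dnmt3b), where 31.2% of all genes were called (15.5% higher, 15.7% lower). The Tet3 call against the effect before OHT was lost without KO EB replicate 3 (adjusted p = 0.0566) or F/F replicate 3 (adjusted p = 0.0594). All 3 Tet genes were lower in KO EB by similar amounts, between -0.44 and -0.49 on the log2 scale. The composition of the Tet RNA was alike in both genotypes there, since Tet1 made up 79.7% and 80.8% of the summed Tet level per kb in KO EB, against 80.1% and 79.8% in WT EB. The sum itself was 77.9 and 84.0 CPM per kb in KO EB, against 118 and 106 CPM per kb in WT EB. In mESC after OHT, Tet2 made up 53.1% and 53.6% of the sum in KO, against 49.2% and 48.7% in WT.

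**Figure D5:**
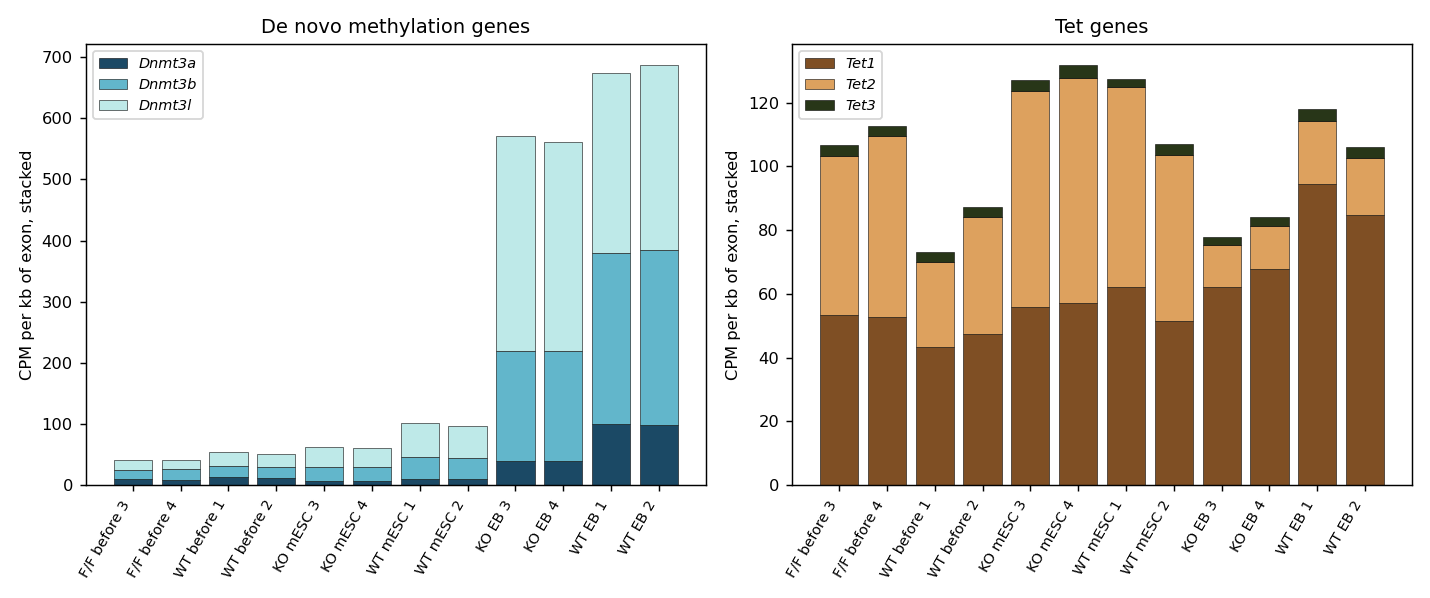
Level in CPM per kilobase of merged exons in each library, stacked for the 3 Dnmt3 genes (left) and the 3 Tet genes (right). Dnmt3l takes the tallest segment in EB, at 352 and 342 CPM per kb in KO and 295 and 303 CPM per kb in WT, and Tet3 the smallest segment of the Tet bars throughout.

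Per length, the order of the genes changed between mESC and EB. In mESC after OHT the highest levels were those of Uhrf1, at 145 and 155 CPM per kb in KO and 174 and 176 CPM per kb in WT, and Dnmt1, at 145 and 147 CPM per kb in KO and 132 and 135 CPM per kb in WT. These genes overlapped in KO and not in WT. In EB Dnmt3l and Dnmt3b came first, with Dnmt3b at 179 and 181 CPM per kb in KO and 279 and 286 CPM per kb in WT. Dnmt3a stood at 39.5 and 38.6 CPM per kb in KO EB, below every gene but Tet2 and Tet3, against 100.4 and 98.5 CPM per kb in WT EB, near Dnmt1 at 105 and 105 CPM per kb. Across groups, the 6 levels of each Dnmt3 gene had no overlap between neighbours in their order. With 2 libraries a group this is a weak description, and the share over all genes was not counted. The Dnmt3b gap between WT and F/F before OHT was not called (adjusted p = 0.0739). For Dnmt1 the neighbours WT mESC, F/F and WT before OHT overlapped in turn, as did KO EB and WT EB. For Uhrf1 the groups below F/F (WT before OHT, KO mESC, WT EB and KO EB) overlapped in turn.

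Genes that act on or with these enzymes were counted from lists chosen with earlier results of these data known. Their counts stand beside 20.7% of all genes higher and 19.7% lower in KO EB, and 19.8% higher and 18.6% lower in KO mESC. Of 19 regulators of the methyltransferases, 6 were higher and 6 lower in KO EB, with a median log2 fold change of -0.02 beside -0.02 over all genes. Leaving out single libraries gave 3 to 4 higher and 2 to 6 lower. In mESC after OHT 2 were higher and 7 lower (median -0.07), and 1 to 3 higher and 3 to 8 lower without single libraries. Prdm14, a repressor of the Dnmt3 genes in mouse ES cells, had 104 ± 4.24 CPM in KO mESC, against 188 ± 14.3 CPM in WT mESC (log2 fold change -0.85 ± 0.09, adjusted p = 2.1e-06). Its F/F value before OHT was below that of WT too (-0.97 ± 0.09, adjusted p = 4.2e-07). In KO EB Prdm14 was higher (0.49 ± 0.11, adjusted p = 0.0016), at 22.4 ± 0.58 CPM, against 16.0 ± 3.13 CPM in WT EB. Dppa3, which keeps UHRF1 off chromatin, had 10.01 ± 0.36 CPM in KO mESC, against 18.1 ± 0.48 CPM in WT mESC, and 14.8 ± 2.48 CPM in KO EB, against 7.44 ± 1.05 CPM in WT EB. It was thus lower in KO mESC (-0.86 ± 0.13, adjusted p = 6.5e-05) and higher in KO EB (0.99 ± 0.14, adjusted p = 1.8e-05), and the F/F lines had less of it even before OHT (-1.47 ± 0.13, adjusted p = 1e-07). Ehmt2, the histone methyltransferase G9a, fell to 153 ± 1.85 CPM in KO EB, against 246 ± 10.3 CPM in WT EB (-0.69 ± 0.08, adjusted p = 3.5e-06), with 0.03 before OHT (adjusted p = 0.8).

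Of 12 genes that regulate TET activity or its cofactor supply, 3 were higher and 4 lower in KO EB (median 0.05), with 1 to 2 higher and 2 to 3 lower without single libraries. In mESC 2 were higher and 5 lower in KO (median -0.16), with 1 to 3 and 2 to 5 without single libraries. Idh2, a mitochondrial isocitrate dehydrogenase that makes the 2-oxoglutarate TET enzymes use, was higher in KO mESC (0.47 ± 0.07, adjusted p = 5.8e-05). Its cytosolic counterpart Idh1 was lower there (-0.40 ± 0.07, adjusted p = 0.00021). Both differences were present before OHT, with Idh2 at 0.65 ± 0.07 (adjusted p = 1.8e-06) and Idh1 at -0.33 ± 0.07 (adjusted p = 0.0013) in F/F against WT. Of 18 tested genes of base excision repair and deamination, 4 were higher and 4 lower in KO EB (median -0.08), with 1 to 3 in each direction without single libraries. The listed gene Tdg, the glycosylase that acts on products of TET oxidation, did not pass the low-count filter and was not tested. Neil2, a DNA glycosylase, was higher in KO in mESC (2.01 ± 0.22, adjusted p = 2.3e-06) and in EB (1.13 ± 0.21, adjusted p = 0.00036), at 3.51 and 4.04 CPM in KO, against 0.87 and 1.85 CPM in WT. It was likewise higher in F/F before OHT (1.94 ± 0.21, adjusted p = 1.1e-06), at 6.17 CPM, against 1.60 CPM in WT.

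Of 17 genes that supply, use or recycle S-adenosylmethionine, the methyl donor, 2 were higher and 6 lower in KO EB (median -0.10). These counts changed when single libraries were left out. Gnmt, a methyltransferase that uses the donor, was among those lower (-1.65 ± 0.285, adjusted p = 0.00019), and was lower before OHT too (-0.90 ± 0.25, adjusted p = 0.0098). Adk, adenosine kinase, had 97.1 ± 2.68 CPM in KO EB, against 169 ± 5.87 CPM in WT EB (-0.80 ± 0.08, adjusted p = 5.2e-07), and its difference before OHT was -0.26 ± 0.08 (adjusted p = 0.021). Before OHT 4 of the 17 were already higher and 7 lower in F/F (median -0.225), beside 19.9% higher and 17.5% lower of all genes. In mESC none was higher and 5 were lower in KO (median -0.14), among them the folate enzyme Mthfd2 (-0.62 ± 0.07, adjusted p = 1.9e-06, and -0.48 ± 0.07, adjusted p = 2.6e-05, before OHT), with 0 to 1 higher and 2 to 7 lower without single libraries. Of 10 readers of methylated DNA, 3 were higher and 3 lower in KO EB (median -0.02), and 3 higher and 2 lower without single libraries. In mESC 5 were higher and 2 lower in KO (median 0.24), with 2 to 5 higher and 2 lower without single libraries. Before OHT 4 of these 10 were already higher and 2 lower in F/F (median 0.24), beside the same shares of all genes before OHT as above. Zbtb38, which binds methylated CpG, was lower in KO mESC (-0.83 ± 0.10, adjusted p = 7.9e-06) and in KO EB (-1.11 ± 0.11, adjusted p = 6.6e-07), and in F/F mESC not yet given OHT (-0.64 ± 0.10, adjusted p = 1e-04). Mbd2, another reader, was higher in both (0.43 ± 0.12, adjusted p = 0.0086, and 0.76 ± 0.12, adjusted p = 8e-05), with 0.31 ± 0.13 (adjusted p = 0.064) before OHT.

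Uhrf1, Dnmt1 and Hells are expressed in S phase, so 22 replication and S-phase genes were counted beside them. In KO EB 3 were higher and 11 lower (median -0.18), beside 20.7% and 19.7% of all genes, with 2 to 3 higher and 6 to 9 lower without single libraries. Mcm5, a subunit of the replicative helicase, had 489.7 ± 4.18 CPM in KO EB, against 679.6 ± 37.8 CPM in WT EB (-0.47 ± 0.08, adjusted p = 1e-04), with -0.02 before OHT (adjusted p = 0.84). Tyms (-0.76 ± 0.10) and Pold1 (-0.76 ± 0.13) differed more in EB, and neither was called before OHT. Before OHT 4 of the 22 were higher and 4 lower in F/F (median -0.06), beside 19.9% and 17.5% of all genes. Among those lower, Mcm2 had -0.30 ± 0.07 before OHT (adjusted p = 0.0033) and -0.28 ± 0.07 in EB (adjusted p = 0.0051). The median level of the 22 genes was 185 and 179 CPM in KO EB, against 244 and 249.8 CPM in WT EB. Among mESC libraries after OHT the median level was 179 and 192 CPM in KO, against 155 and 179 CPM in WT. Before OHT it was 138.5 and 152.1 CPM in F/F, against 152.5 and 148.4 CPM in WT. Both KO libraries lay below both WT libraries in EB, and the genotypes overlapped in mESC after OHT and before it. Hells was lower in the Rif1F/F lines in all 3 conditions. The median level depends on which of the 22 genes rank in the middle, so it need not follow their median fold change. In mESC after OHT 3 were higher and 10 lower in KO (median -0.15), and 1 lower and 3 higher without WT mESC replicate 1. The part of cell cycle differences in the values of Hells was not tested.

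For each of the 9 genes, the 3 genes whose log2 CPM correlated best over the 12 libraries were found among all genes tested. These values describe a pattern over 6 groups in which the EB libraries share a run. For Dnmt3a they were Pde2a, Tmem54 and Mal2 (Pearson correlation 0.992 to 0.989), for Dnmt3b Foxh1, Kifc2 and Dusp6 (0.995 to 0.994), and for Dnmt3l Fgfr2, Synpo2 and F2rl1 (0.994 to 0.992). For Dnmt1 they were Acy1, Kdm3b and Cdr2l (0.985 to 0.982), for Uhrf1 Slc23a2, 2810025M15Rik and Gtf3c1 (0.899 to 0.875), and for Hells 1110008L16Rik, Pnlip and Ugdh (0.982 to 0.977). For Tet1 they were Jmjd1c, Mettl2 and Psmc3ip (0.97 to 0.964), for Tet2 Slc6a8, Cdh4 and Exoc6b (0.982 to 0.98), and for Tet3 Shroom3, Pcnxl3 and Plscr3 (0.913 to 0.89). No gene of the 9 was among the 3 closest to another.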

How the data were processed

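The values are raw counts of reads for each gene symbol, deposited by the authors as 1 table with no scaling. Per the submitters' processing notes, BWA, HTSeq, DESeq2 and the mm9 build were used, and their versions and roles are not given in the sources used here. Counts were analysed with edgeR 4.0.16 in R 4.3.3, by the quasi-likelihood F test on 1 model of 6 groups with TMM normalization, filterByExpr and Benjamini-Hochberg adjustment over 17115 genes, called at 0.05. The common dispersion had a square root of 0.0717, with 11 prior degrees of freedom. Libraries held 28600870 to 64808897 counts, of which Rn45s took 3.99% to 8.69%. SE were derived from the fitted log2 fold change and its F statistic. Correlations used log2 CPM with a prior count of 2. On simulated counts for KO against WT mESC, 100% of genes changed by 1 on the log2 scale and 86% and 84% of those changed by -0.5 and 0.5 were called, with 14 of 16398 unchanged genes called. Only 50 genes were changed at each size and direction, far fewer than the 6572 called in the data. These shares therefore describe that setting and do not measure the error in these data.

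Exon lengths came from GENCODE and upstream sequences from RefSeq, both on GRCm38. They were joined by symbol, and no coordinate was carried over from mm9. Same-numbered libraries came from the same cell line, so the numbers pair libraries across conditions. The correlations of their deviations from the group means were -0.066 to 0.0912. Alternatives were DESeq2 size factors, library totals, no filter, DESeq2 1.42.0, only the groups compared, the line as a block, leaving out each library, and leaving out Rn45s, the last chosen after the data were seen. The 9 genes and the lists were chosen with earlier results of these data known. Named genes were the 9, Rif1, the 3 closest to each, and up to 3 called genes with the largest change per list in KO against WT mESC and EB. Dazl, Mcm2 and Tdg were named outside this rule. p-values measure only the spread between these libraries.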

Additional observations from a re-analysis of the deposited data

Results flagged for a closer look

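The genotype effect (Rif1F/F lines against WT lines, log2 scale) differed between conditions by edgeR's quasi-likelihood test of the difference for the genes below. In EB it was more negative than in mESC for Dnmt3a by -0.773 (adjusted p = 8.2e-05), Tet1 by -0.456 (adjusted p = 0.00956), Tet2 by -0.761 (adjusted p = 0.00264) and Tet3 by -0.784 (adjusted p = 0.00139). It was more positive in EB for Dnmt3l, by 1.01 (adjusted p = 5.5e-07).

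Set against the effect before OHT, the effect in EB differed by -0.872 for Dnmt3a, -0.475 for Dnmt3b, 0.694 for Dnmt3l, -0.687 for Tet1, -1.25 for Tet2 and -0.54 for Tet3. Tet3 there had an adjusted p of 0.0147, and 0.0566 without KO EB replicate 3 or 0.0594 without F/F replicate 3. Hells had an adjusted p of 0.132, and 0.0425 without F/F replicate 3. After OHT the effect differed from that before it by -0.425 for Dnmt3b, -0.316 for Dnmt3l and -0.363 for Uhrf1. Leaving out any 1 of 4 libraries ended all 3 of these last calls.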

How the results depend on the processing

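Of 1071 log2 fold changes of the 9 genes recomputed under alternatives, 975 kept direction and side of the threshold, 50 lost a call, 25 gained one and 21 changed sign, all of values that were not called. Counts of called genes among the 9 stayed within 1.5 times except for the genotype effect after OHT minus before it, which was 3 and became 1 with library totals, 0 with only the groups compared and 0 to 6 without single libraries. Over all genes that contrast called 1346, and 2218 with no filter, 705 with only the groups compared and 510 to 2540 without single libraries. KO against WT mESC called 6572, and 4125 without KO mESC replicate 4.

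Library totals moved the share of calls that were higher to 61.5% from 51.2% for KO against WT in EB, to 61.1% from 51.5% for KO against WT in mESC, to 39.6% from 50.7% for WT mESC against WT before OHT, to 73.2% from 51.8% for the effect after minus before OHT and to 62.4% from 49.7% for EB minus before OHT. Sign changes with library totals were Tet1 in KO against WT mESC (0.0547), Uhrf1 in EB (0.0227), Dnmt1 in F/F against WT (-0.0195) and Dnmt1 in WT after OHT (-0.0676). Dnmt1 in EB minus before OHT became -0.0029 with no filter, and Tet1 in mESC 0.0037 with only the groups compared.

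Without single libraries, values that changed sign ranged from -0.137 to 0.152 for Tet1 in KO against WT mESC, -0.0036 to 0.021 for Dnmt1 and -0.0909 to 0.0398 for Uhrf1 in EB, -0.0333 to 0.0469 for Dnmt1 in F/F against WT, -0.0016 to 0.0501 for Dnmt1 and -0.294 to 0.179 for Tet3 in WT after OHT, and -0.0053 to 0.486 for Tet3 in WT EB against WT mESC. For differences between effects they ranged from -0.232 to 0.034 for Dnmt3a after minus before OHT, -0.0512 to 0.0763 for Hells in EB minus mESC, and -0.0403 to 0.0401 for Dnmt1 in EB minus before OHT. A lone library was assumed to vary like the other groups. Further calls that depended on 1 library were those of Tet1 in WT after OHT (adjusted p = 0.0668 without WT mESC replicate 1, 0.0608 without WT replicate 1 from before OHT) and Uhrf1 there (0.104 without WT replicate 2 from before OHT).

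The line as a replicate block changed the calls of Tet3 in WT EB (adjusted p = 0.0477) and Dnmt3l after minus before OHT (0.0636) and no other call. Leaving out Rn45s changed no call. Only 2 libraries per group limit the precision.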

Other observations

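Of 20 germline genes whose promoters are known to be silenced by DNA methylation in mouse, most were lower in the Rif1F/F lines in mESC, and the pattern was mixed in EB. In KO EB 8 were higher and 11 lower than in WT EB (median log2 fold change -0.44), where 20.7% of all genes were higher and 19.7% lower, in KO mESC 3 were higher and 16 lower (median -0.79), and in F/F before OHT 1 was higher and 16 lower (median -1.60). Of all genes, 19.8% were higher and 18.6% lower in KO mESC, and 19.9% higher and 17.5% lower in F/F before OHT. Leaving out single libraries gave 7 to 8 higher and 8 to 9 lower in EB, 3 and 16 in mESC, and 1 and 15 to 16 before OHT. Dazl, an RNA-binding protein of germ cells, had 90.97 ± 8.57 CPM in F/F and 662 ± 27.8 CPM in WT before OHT, 288 ± 28.2 CPM in KO mESC and 648 ± 55.9 CPM in WT mESC after OHT, and 272 ± 2.05 CPM in KO EB and 84.1 ± 3.41 CPM in WT EB. Its genotype difference was thus -2.86 ± 0.09 before OHT, -1.17 ± 0.08 in mESC after OHT and 1.69 ± 0.09 in EB. Asz1, a germ cell protein of the piRNA pathway, had 40.9 ± 1.00 CPM in KO EB, against 7.20 ± 0.19 CPM in WT EB, and 4.67 ± 0.32 CPM in KO mESC, against 13.2 ± 1.12 CPM in WT mESC. Sycp1, of the synaptonemal complex, was lower in Rif1F/F lines in all 3 conditions, at 39.1 ± 0.52 CPM in KO EB, against 61.3 ± 2.85 CPM in WT EB. Tuba3b had the largest change of the list in EB, at 57.1 ± 2.48 CPM in KO, against 7.06 ± 0.55 CPM in WT. It was higher in KO mESC too, at 33.6 ± 1.66 CPM, against 5.56 ± 0.07 CPM in WT mESC. DNA methylation itself was not measured in these libraries.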
